A study of Mus musculus with 12 samples.

Results

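The genes described here are 10 factors that serve the making and handling of histones during DNA replication, taken by symbol from a table of 23420 genes: Slbp, Lsm10, Lsm11, Npat, Casp8ap2, Asf1a, Asf1b, Chaf1a, Chaf1b and Nasp. All 10 were in the table and all 10 passed the filter on low counts, which left 11719 genes for testing. Total RNA was sequenced from basal cells of the epithelium of the hard palate of 6 FVB mice. Each mouse carried K5-tTA (+/-) and tetO-H2B-GFP (+/-), so that a keratin 5 promoter drives a transactivator in basal cells and the transactivator drives a histone H2B fused to GFP, and each was chased with doxycycline, which turns the reporter off, for 14 days. From each mouse, live cells stained for CD49f (integrin α6) were sorted into a GFP-HI fraction, labelled as infrequently dividing, and a GFP-LO fraction, labelled as frequently dividing, giving 6 libraries of each. The mice were 49 days old except B7F, which was 71 days old. No unchased library is among them, and RNA came from pools of 200 to 1000 sorted cells per library.

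Replication-dependent histone mRNAs are the messengers of animals that end in a conserved stem-loop instead of a poly(A) tail. Stem-loop binding protein (SLBP) holds that stem-loop, the U7 small nuclear ribonucleoprotein pairs with a sequence downstream of it, and the cut between them makes the mature end. NPAT, a target of cyclin E and CDK2, and FLASH, the product of Casp8ap2, sit at histone gene clusters in a nuclear body where transcription and processing meet. The newly made H3 and H4 proteins are then held by NASP, passed on by ASF1 and placed on new DNA by chromatin assembly factor 1 (CAF-1).

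The element that SLBP holds is shown here because the clustered histone transcripts are what these factors act on. GENCODE M21 transcripts (GRCm38) were searched for a perfect 6-base stem that opens with GG around a 4-base loop. The loop had to start with TT and end in C, T or A. A match was found in 44 of the 68 clustered histone genes of the table. Among the 21777 genes of the table that have a transcript in that annotation, the share with a match was 0.602%. No match was found in the 6 replication-independent histone genes searched (H2afz, H2afv, H2afy, H3f3a, H3f3b and H1f0). Of the clustered histone genes that were tested between the fractions, 20 had no match. Whether their stem-loop departs from these letters or their annotated transcript stops before it was not tested, so no match does not mean that the element is absent. The 44 matches had 6 different sequences, and 26 genes shared the first one below. The lines give, for each of the 6, the highest expressed gene that was tested, with the stem-loop in capitals and 5 bases on each side, 5′ to 3′ on the gene's strand.
Hist1h3b, chr13:23752820-23752835, plus strand: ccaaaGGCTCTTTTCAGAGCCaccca
Hist1h4d, chr13:23581950-23581965, plus strand: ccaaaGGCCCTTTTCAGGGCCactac
Hist1h3c, chr13:23745047-23745062, minus strand: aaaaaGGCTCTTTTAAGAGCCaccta
Hist2h4, chr3:96262939-96262954, minus strand: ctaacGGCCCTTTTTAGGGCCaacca
Hist1h4b, chr13:23757366-23757381, plus strand: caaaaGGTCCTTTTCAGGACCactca
Hist2h2ac, chr3:96220418-96220433, minus strand: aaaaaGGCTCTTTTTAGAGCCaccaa
The stem-loop lay inside the exons over which the deposited counts were made in 22 of the 43 genes where it could be placed, and outside them in 21, among them Hist1h3b. How reads that run over the end of a counted exon were treated is not given in the sources used here, and a count per gene does not tell cut from uncut ends.

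Libraries held 6678444 to 10547665 counts, of which 31.5% to 59.8% fell on the 45S pre-ribosomal RNA gene Rn45s. The 10 genes had from 4 counts (Lsm10 in GFP-LO of B1M) to 1082 counts (Nasp in GFP-HI of B1M) in a library, and 1 count was worth 0.0859 to 0.144 CPM (library-scaled counts, by trimmed mean of M-values). The fewest genes, 12312 and 12810, were detected in GFP-HI of B1M and of B3M, against 13101 to 19023 elsewhere, and values without these mice stand beside the results that they move most. The summed level of 10 basal keratinocyte markers was 15924 to 24715 CPM across GFP-HI, against 18904 to 25697 CPM across GFP-LO. Within mice this sum was higher in GFP-HI in 1 of 6, with a mean log2 difference of −0.11 ± 0.128 (SD), and edgeR called 0 of the 10 markers. Other markers were low, with sums in GFP-HI and GFP-LO of 24.8 to 49.8 and 31.0 to 42.9 CPM for 8 fibroblast genes, 0.246 to 22.5 and 0.251 to 31.9 CPM for 9 immune genes, 0 to 4.91 and 0 to 2.70 CPM for 5 endothelial genes (Emcn at 0 throughout), 8.91 to 18.2 and 7.13 to 11.5 CPM for 5 melanocyte genes, and 19.3 to 35.0 and 9.97 to 30.2 CPM for 6 Merkel cell genes. The 9 suprabasal keratinocyte genes in the table summed to 1181 to 3538 CPM across GFP-HI, against 1220 to 2514 CPM across GFP-LO.

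None of the 10 genes passed the test between GFP-HI and GFP-LO. In edgeR's quasi-likelihood test with mouse as a block, 0 of 10 had an adjusted p (Benjamini-Hochberg) under 0.05 in either direction, against 0.529% of all tested genes (0.469% higher and 0.0597% lower in GFP-HI). DESeq2 also called 0. At an unadjusted p under 0.05 there were 2 of the 10, Asf1b and Nasp, in edgeR, where 7.24% of all tested genes were under it, and 2 in DESeq2. None was higher in GFP-HI in all 6 mice (3.34% of all tested genes were) and none was lower in all 6 (2.6%). The log2 fold changes of GFP-HI over GFP-LO were positive for 9 of the 10, with a median of 0.22, beside 46.9% positive and a median of −0.02 over all tested genes. The processing factors and locus activators other than Lsm10 had values within 0.07 of 0. Of the chaperones, Asf1b, Chaf1a and Chaf1b had 0.45 to 0.70, while Nasp had 0.23 and Asf1a had 0.21. In sorted pools, a different share of cells in S phase and a different amount of an RNA in each such cell cannot be told apart.

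**Figure D1:**
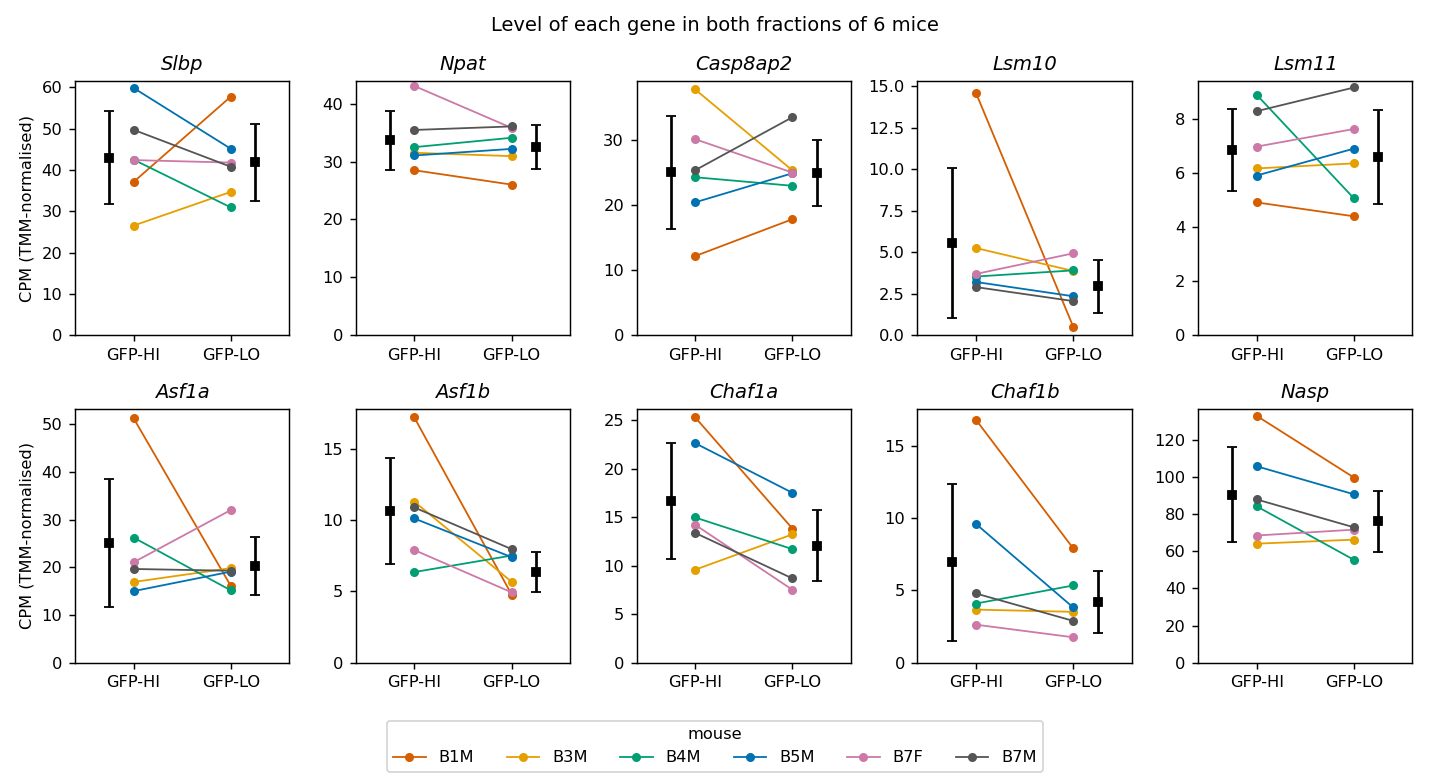
Level of each of the 10 genes in CPM (vertical axes from 0) in GFP-HI and GFP-LO libraries; a line joins both fractions of a mouse, and black squares with bars are means ± SD (n = 6). The fractions overlap for every gene, and the GFP-HI library of B1M stands highest for Lsm10, Asf1a, Asf1b, Chaf1a, Chaf1b and Nasp.

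Per base of annotated exon, Nasp and Slbp were the most abundant of the 10 and Lsm11 the least. Over the 12 libraries Nasp averaged 26.4 ± 6.90 and Slbp 26.02 ± 6.07 CPM per kb (SD), and Nasp was above Slbp in only 4 of 12 libraries, so their order is not fixed. Asf1a followed at 10.4 ± 4.70 CPM per kb, below Slbp in 11 of 12 libraries, and Asf1b at 5.31 ± 2.18 CPM per kb, below Asf1a in 12 of 12. The next 4 did not differ beyond their spread, namely Lsm10 at 4.63 ± 3.84, Npat at 4.50 ± 0.589, Chaf1a at 4.35 ± 1.604 and Casp8ap2 at 3.67 ± 0.996 CPM per kb. Chaf1b stood at 2.91 ± 2.19 CPM per kb, and Lsm11 at 1.04 ± 0.241 CPM per kb was below it in 11 of 12 libraries.

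**Figure D2:**
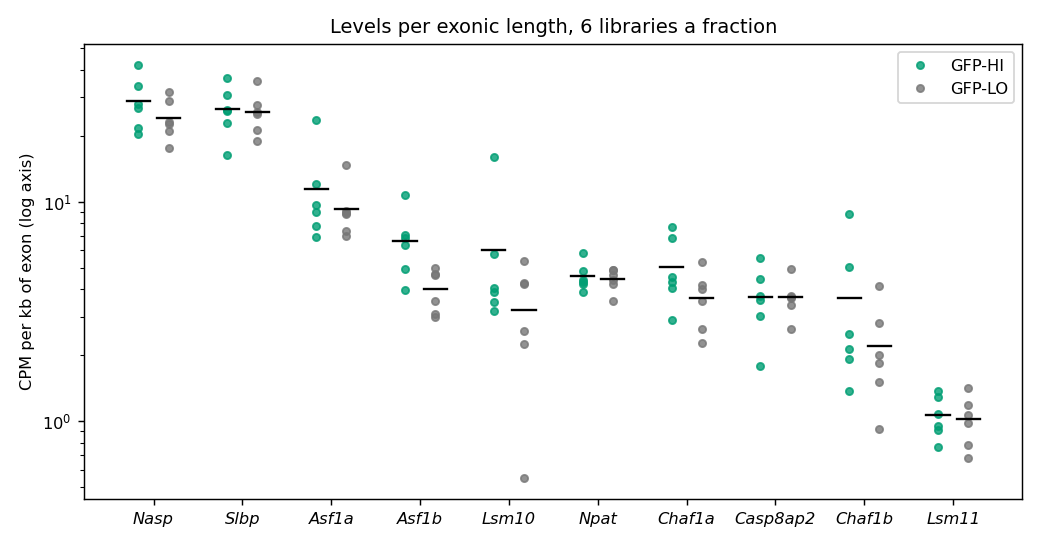
Level per kb of exon (log axis) of each gene, ordered by its mean over 12 libraries; points are libraries, 6 GFP-HI at the left and 6 GFP-LO at the right of each pair, and black bars are means. Nasp and Slbp lead and Lsm11 is last, at 1.04 CPM per kb.

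Slbp (chromosome 5, 33640062 to 33652306, mm10), which encodes the stem-loop binding protein, differed by less than the spread between mice. Its level was 26.5 CPM at the lowest, 42.5 at the median and 59.9 at the highest in GFP-HI, against 30.9, 41.3 and 57.8 CPM in GFP-LO. The fractions overlap almost wholly. The log2 fold change was 0.03 ± 0.16 (SE; adjusted p = 0.98), with a 95% interval of −0.31 to 0.36, or 0.806-fold to 1.29-fold. The mice did not move together, since the log2 difference of GFP-HI from GFP-LO was −0.64 in B1M and −0.39 in B3M but 0.46 in B4M, 0.41 in B5M, 0.29 in B7M and 0.02 in B7F. Slbp was thus lower in GFP-HI only in those mice whose GFP-HI libraries detected the fewest genes. Whether the number of genes detected has a part in this was not tested. Without them its log2 fold change was 0.29 ± 0.12 (edgeR adjusted p = 0.40, unadjusted p = 0.024). B1M and B3M are the only mice with a negative Slbp difference, so leaving them out had to raise the value. This p is therefore no evidence of a difference.

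Lsm10 and Lsm11, Sm-like proteins that take the place of a pair of the usual Sm proteins in the ring of the U7 particle, did not pass the test. Lsm10 had the lowest counts and the largest SE of the 10 genes. Lsm10 (chromosome 4, 126096653 to 126098584) was at 2.90, 3.61 and 14.6 CPM (lowest, median and highest) across GFP-HI libraries, against 0.503, 3.10 and 4.93 CPM across GFP-LO libraries. Both ends came from 1 mouse, B1M, whose GFP-HI library had 119 counts and whose GFP-LO library had 4. The log2 fold change of 0.71 ± 0.60 (SE; adjusted p = 0.84; interval −0.60 to 2.01) became 0.16 ± 0.39 without B1M (edgeR adjusted p = 0.94). Lsm11 (chromosome 11, 45928269 to 45944935) was at 4.91, 6.57 and 8.90 CPM across GFP-HI libraries, against 4.397, 6.63 and 9.17 CPM across GFP-LO libraries, with a log2 fold change of 0.07 ± 0.29 (adjusted p = 0.98). Only B4M had a log2 difference above 0.2 for Lsm11, at 0.79. The U7 RNA itself, Rnu7, named after its values were seen, had 0 counts in all 12 libraries, which allows up to 0.258 to 0.433 CPM in the different libraries (3 counts, counting error only), and its annotated exon in the table is 25 bases long.

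Neither activator at the histone loci passed the test between the fractions, and the estimates lay near 0. Npat (chromosome 9, 53537047 to 53575627) was at 28.5, 32.0 and 43.1 CPM across GFP-HI libraries, against 26.01, 33.1 and 36.1 CPM across GFP-LO libraries. Its log2 fold change was 0.05 ± 0.12 (SE; adjusted p = 0.95; interval −0.22 to 0.31). Npat was the steadiest of the 10 genes. The SD of its log2 difference across mice was 0.129, whereas genes of a like level (within 0.5 log2 CPM, n = 2108) had a median SD of 0.358, and 1.33% of them had a smaller one. Casp8ap2 (chromosome 4, 32615473 to 32653265) was at 12.2, 24.8 and 37.8 CPM across GFP-HI libraries, against 17.8, 24.96 and 33.5 CPM across GFP-LO libraries, with a log2 fold change of −0.05 ± 0.17 (adjusted p = 0.97; interval −0.42 to 0.33). Both GFP-HI extremes belong to the libraries that detected the fewest genes, B1M at 12.2 and B3M at 37.8 CPM, and Casp8ap2 differed by −0.54 in B1M and 0.57 in B3M on the log2 scale.

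The chaperones of H3 and H4 had the largest positive values among the 10 apart from Lsm10. Asf1b (chromosome 8, 83955694 to 83970195), the ASF1 paralogue tied to proliferating cells, was at 6.36, 10.5 and 17.2 CPM across GFP-HI libraries, against 4.77, 6.53 and 7.96 CPM across GFP-LO libraries. It was higher in GFP-HI in 5 of 6 mice, with B4M at −0.23 on the log2 scale, and its levels in the fractions overlap. The log2 fold change was 0.70 ± 0.30 (SE; 1.62-fold, interval 1.04-fold to 2.52-fold), with an unadjusted p of 0.035 and an edgeR adjusted p of 0.66. B1M contributed a log2 difference of 1.80, and without B1M the value was 0.48 ± 0.26 (edgeR unadjusted p = 0.080). Without B1M and B3M it was 0.34 ± 0.24 (edgeR adjusted p = 0.73).

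Asf1a (chromosome 10, 53596961 to 53609215), the paralogue that also serves deposition outside replication, was at 15.02, 20.4 and 51.3 CPM across GFP-HI libraries, against 15.2, 19.2 and 32.0 CPM across GFP-LO libraries. Its log2 fold change was 0.21 ± 0.26 (SE; adjusted p = 0.89; interval −0.36 to 0.77). The 51.3 CPM came from B1M, and the fold change was −0.08 ± 0.19 without that mouse (edgeR adjusted p = 0.94). Asf1a lies inside Mcm9, a helicase gene on the opposite strand (53537324 to 53630439), without overlap between their exons. Because the strand setting of the counting is not given in the sources used here, unspliced Mcm9 RNA over Asf1a exons cannot be told apart from Asf1a RNA. Mcm9 itself was at 2.33 CPM in the GFP-HI library of B1M and 7.41 to 13.1 CPM in the other GFP-HI libraries, against 9.39 to 12.9 CPM in GFP-LO.

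Chaf1a and Chaf1b encode the large and the middle subunit of CAF-1, which binds the sliding clamp PCNA and places H3 and H4 behind the fork. Chaf1a (chromosome 17, 56040416 to 56068026) was at 9.58, 14.6 and 25.3 CPM across GFP-HI libraries, against 7.51, 12.5 and 17.5 CPM across GFP-LO libraries. It was higher in GFP-HI in 5 of 6 mice, all but B3M at −0.46, with a log2 fold change of 0.45 ± 0.22 (SE; unadjusted p = 0.061, edgeR adjusted p = 0.70; 0.983-fold to 1.89-fold). With 1 mouse left out at a time Chaf1a lay between 0.36 ± 0.24 without B7F (unadjusted p = 0.17, edgeR adjusted p = 0.80) and 0.63 ± 0.19 without B3M (unadjusted p = 0.0069, edgeR adjusted p = 0.44), and it was 0.36 ± 0.21 without B1M (unadjusted p = 0.11, edgeR adjusted p = 0.71). Without B1M and B3M it was 0.56 ± 0.19 (unadjusted p = 0.0059, edgeR adjusted p = 0.21). Chaf1b (chromosome 16, 93883901 to 93906106) was at 2.63, 4.44 and 16.8 CPM across GFP-HI libraries, against 1.76, 3.67 and 7.91 CPM across GFP-LO libraries, with B1M the highest in both fractions. It was higher in GFP-HI in 5 of 6 mice, all but B4M at −0.37, and its log2 fold change was 0.58 ± 0.36 (adjusted p = 0.78; 0.876-fold to 2.55-fold). Chaf1b was at 0.47 ± 0.37 without B1M and 0.58 ± 0.34 without B1M and B3M (edgeR adjusted p = 0.80 and 0.64).

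The promoters of the CAF-1 pair are shown because these subunits had the highest correlation of any pair of the 9 genes that averaged at least 5 CPM, Pearson r = 0.80 over 12 libraries from 6 mice that share depth and mouse. Over the 6 within-mouse differences it was 0.46. The windows are RefSeq promoters of GRCm38.p6, from 250 bases before to 50 bases after the annotated start. Capitals mark the letters TTCGCGC, its variant TTGGCGC, the variant TTCCCGC with another middle, or the last variant TTGCCGC, on either strand, a core of the sites that E2F factors bind.
Chaf1a, chr17:56040166-56040465, plus strand: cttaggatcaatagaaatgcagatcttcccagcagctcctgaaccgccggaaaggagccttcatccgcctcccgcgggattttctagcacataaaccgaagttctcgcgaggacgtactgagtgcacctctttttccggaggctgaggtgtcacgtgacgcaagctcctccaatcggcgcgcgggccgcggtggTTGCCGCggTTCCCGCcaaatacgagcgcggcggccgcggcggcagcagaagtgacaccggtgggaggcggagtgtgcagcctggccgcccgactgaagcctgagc
Chaf1b, chr16:93883651-93883950, plus strand: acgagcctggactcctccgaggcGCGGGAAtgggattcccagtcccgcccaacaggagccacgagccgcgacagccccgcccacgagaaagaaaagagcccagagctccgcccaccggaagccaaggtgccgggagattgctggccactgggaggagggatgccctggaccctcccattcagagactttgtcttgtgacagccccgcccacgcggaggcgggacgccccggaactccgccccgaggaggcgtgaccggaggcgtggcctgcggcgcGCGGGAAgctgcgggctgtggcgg
Each window held 2 matches. A match was present for 4 of the 10 genes, also Npat and Casp8ap2, against 9.57% of 32851 promoter windows. At Casp8ap2, 2 of its 3 matches overlap on opposite strands. CCAAT on either strand was present for 8 of the 10 (37.4% of all windows), with 4 matches at Asf1b and 3 at Slbp, and TTTGAA, letters of the cell cycle homology region, for 3, namely Lsm11, Asf1b and Nasp (17.9% of all windows). The RefSeq start of Slbp lies upstream of the first exon in the table, so its window is not the one next to the counted exons. A match is a description of these letters and not a bound site.

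Nasp (chromosome 4, 116601052 to 116627951), which keeps a reserve of H3 and H4 and also binds linker histones, had the highest counts of the 10. It was at 64.1, 86.0 and 133 CPM across GFP-HI libraries, against 55.3, 72.2 and 99.6 CPM across GFP-LO libraries. The log2 fold change was 0.23 ± 0.10 (SE; 1.18-fold, interval 1.007-fold to 1.37-fold), with an unadjusted p of 0.042 and an edgeR adjusted p of 0.66. Nasp was higher in GFP-HI in 4 of 6 mice and differed by −0.05 in B3M and −0.06 in B7F on the log2 scale. With 1 mouse left out at a time, its 95% interval took in 0 without B1M, B4M, B5M or B7M, and stayed above 0 without B3M or B7F. Its log2 fold change was 0.16 ± 0.10 without B4M (edgeR unadjusted p = 0.15) and 0.29 ± 0.11 without B3M (edgeR unadjusted p = 0.020, adjusted p = 0.65). A processed pseudogene, Nasp-ps1, is annotated elsewhere in the genome, so some reads of Nasp may have been shared with it or lost.

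**Figure D3:**
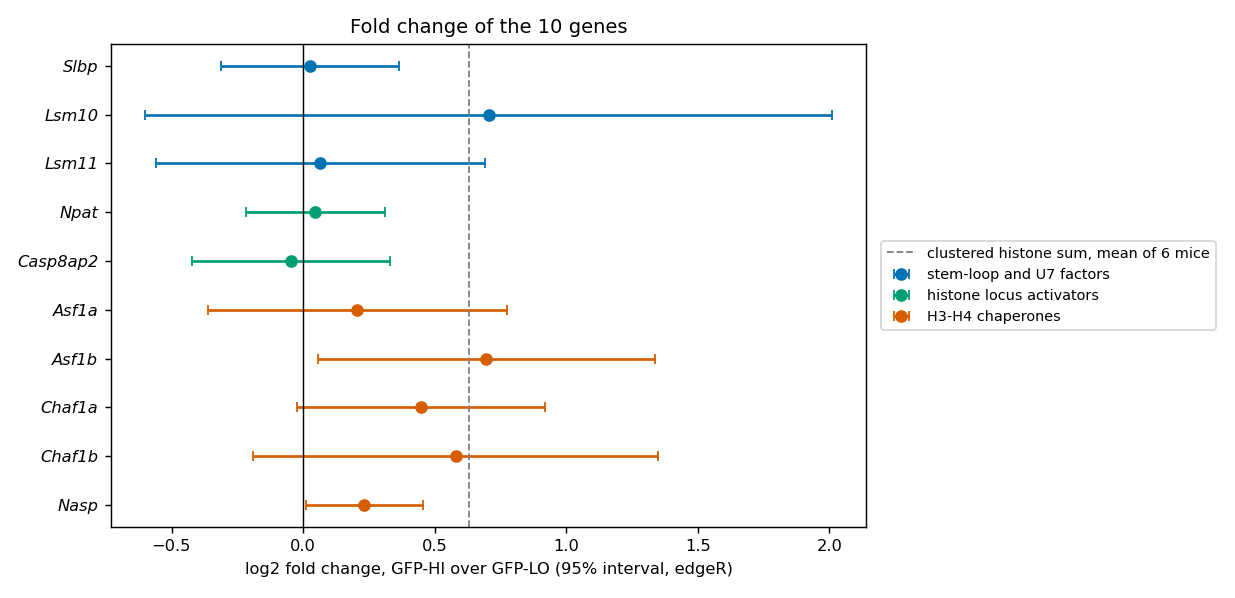
Log2 fold change of GFP-HI over GFP-LO for the 10 genes (points) with 95% intervals from edgeR (bars), coloured by role; the dashed line is the mean within-mouse log2 difference of the summed clustered histone transcripts, 0.63. The intervals of Slbp, Npat, Casp8ap2 and Nasp end below the dashed line, and how many of all tested genes have such an interval was not counted.

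Set beside the histone transcripts they serve, Slbp, Npat, Casp8ap2 and Nasp had intervals that ended below the mean difference of those transcripts, a comparison given as a description with no test. The sum of the clustered histone genes was higher in GFP-HI by a mean log2 of 0.63 ± 0.127 (SD, n = 6 mice), at 0.45 to 0.80 in single mice, and by 0.60 ± 0.155 (SD, n = 4) without B1M and B3M. The 95% intervals of Slbp, Npat, Casp8ap2 and Nasp ended at 0.36, 0.31, 0.33 and 0.46 on the same scale. As a ratio, Slbp stood at 5.54 ± 3.09 CPM per 1000 CPM of histone transcripts in GFP-HI, against 7.59 ± 2.91 in GFP-LO (SD over 6 mice), and was below in 6 of 6 mice. The ratio was also lower in GFP-HI in 6 of 6 mice for Npat, Casp8ap2 and Nasp (mean log2 ratio −0.60 for Slbp, −0.58 for Npat, −0.68 for Casp8ap2 and −0.40 for Nasp). For Asf1b, Chaf1a and Chaf1b it was lower in 3 of 6 mice (mean log2 ratio 0.07, −0.18 and −0.06). Lsm11 and Asf1a were lower in 5 of 6, and the Lsm10 ratio was lower in 4 of 6. The histone sum was known to be higher in 6 of 6 mice before these ratios were formed, so a lower ratio for a level gene restates that difference, and no test of the ratios is given. The median log2 fold change over all tested genes was −0.02. How many of all tested genes had such a ratio or interval was not counted.

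**Figure D4:**
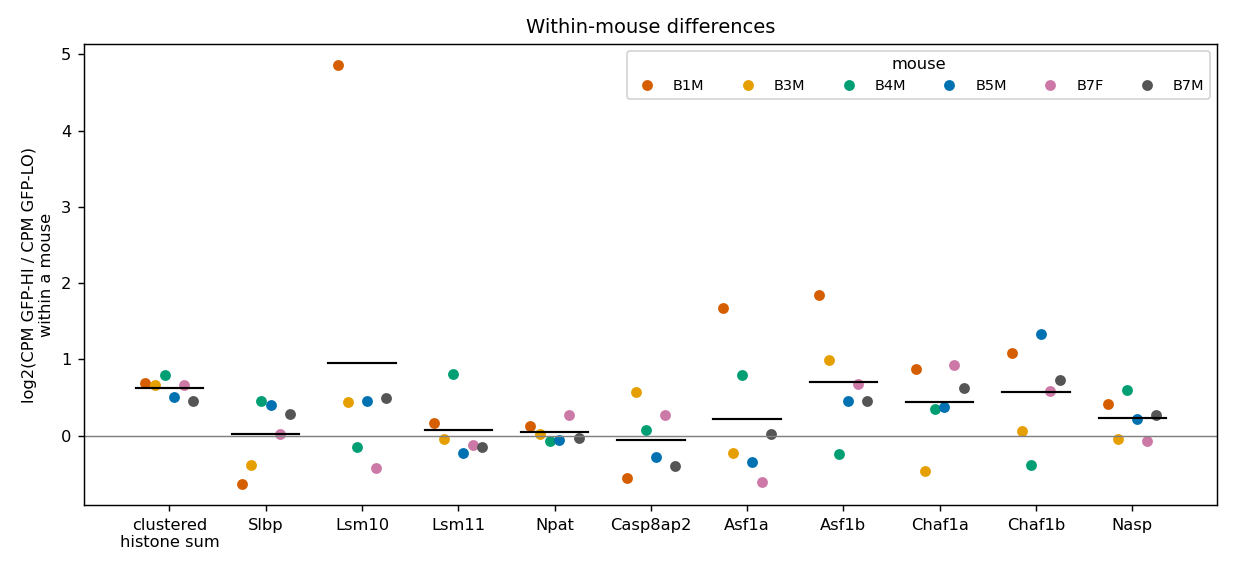
Log2 ratio of CPM in GFP-HI over GFP-LO within each mouse (points, coloured by mouse; bars are means of 6) for the summed clustered histone genes and the 10 factors. The histone sum is positive in every mouse, at 0.45 to 0.80, while Slbp is at −0.64 in B1M and −0.39 in B3M, and Lsm10 in B1M is the highest point.

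Across mice, the level of the factors did not follow the level of histone transcripts in a common way. In GFP-HI the histone sum reached 15444 CPM for B1M and 16040 CPM for B3M, with 5204 to 8517 CPM for the remaining mice. The GFP-LO sums were 9570 CPM for B1M, 10110 CPM for B3M and 3804 to 5516 CPM for the remaining mice. In the GFP-HI libraries of those 2 mice Slbp was at 37.1 and 26.5 CPM, the lowest of the 6. In GFP-LO, Slbp of B1M was instead the highest of the 6 at 57.8 CPM, and that of B3M was at 34.7 CPM, within the 30.9 to 45.1 CPM of the others. In GFP-HI, Nasp was at 133 CPM, the highest, in B1M and at 64.1 CPM, the lowest, in B3M, and Chaf1a likewise at 25.3 and 9.58 CPM. Casp8ap2 ran the other way in GFP-HI, at 12.2 CPM in B1M and 37.8 CPM in B3M. In GFP-LO of B1M and B3M, Nasp was at 99.6 and 66.2 CPM, Chaf1a at 13.8 and 13.2 CPM and Casp8ap2 at 17.8 and 25.3 CPM. Over the 12 libraries Casp8ap2 had Pearson r = −0.81 with Chaf1b and −0.76 with Nasp, while Nasp had 0.75 with Chaf1a and 0.74 with Chaf1b. Over the 6 within-mouse differences the same pairs had r = −0.68 and −0.57 for Casp8ap2, and 0.25 and −0.13 for Nasp, so that of Nasp with Chaf1b turned its sign. These are descriptions over libraries that share mouse and depth.

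The genes whose log2 CPM followed a member most closely over the 12 libraries, among 9563 genes of at least 5 CPM, were for Slbp the kinase genes Jak1 (Pearson r = 0.93) and Stk17b (0.89) and the nuclear receptor gene Nr4a2 (0.89). For Asf1b they were Fanci (0.94), of the crosslink repair pathway, the centriole gene Ccp110 (0.93) and Cdan1 (0.92), whose product codanin-1 binds ASF1. For Nasp they were Nampt (0.92), Ypel5 (0.91) and Pola1 (0.90), the catalytic subunit of DNA polymerase alpha. Those of Casp8ap2 were 2210404J11Rik (0.96), Crip2 (0.93) and Emc8 (0.92), and those of Npat were Kdelc2 (0.91), Rn4.5s (0.86) and Parp14 (0.85). Asf1a had Nus1 (0.91), Tfam (0.89) and Fam120aos (0.88), and Lsm11 had Plxdc1 (0.87), Uspl1 (0.87) and Tchp (0.85). Zyx, of focal adhesions, was among the 3 closest for both CAF-1 genes (0.86 with Chaf1a and 0.90 with Chaf1b). These are the highest of 9563 values for each gene, given as descriptions over libraries that share mouse and depth, with no test.

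None of the 65 partner genes from 5 lists passed the edgeR test in either direction, all 65 having been tested, and 8 had an unadjusted p under 0.05, or 12.3% against 7.24% of all tested genes. DESeq2 called 1 of them, Dek, where it called 1.03% of all genes it gave an adjusted p. Partners in the cutting of histone pre-mRNA and the Sm ring had 6 positive and 8 negative log2 fold changes (median −0.04), with no unadjusted p under 0.05. The smallest p were those of the Sm protein genes Snrpe (log2 0.25), Snrpd3 (−0.26) and Snrpb (−0.14; adjusted p = 0.77, 0.79 and 0.80), of which Snrpd3 was at −0.09 without B1M. Partners in histone mRNA translation and decay had 3 positive and 7 negative values (median −0.07), led by Smg1, the kinase of the decay helicase UPF1, Lsm4, of the ring that starts decay, and Mif4gd, whose product binds SLBP on translated histone mRNA (log2 −0.21, −0.43 and −0.23; adjusted p = 0.70, 0.71 and 0.80). Without B1M, Smg1 was at −0.12, Lsm4 at −0.29 and Mif4gd at −0.18.

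At the histone loci and the fork the partners lay mostly above 0. Of 8 genes of locus activation 6 were positive (median 0.27) and 3 had an unadjusted p under 0.05. Pou2f1, an activator of H2B genes, was at 49.5 ± 8.02 CPM on average in the GFP-HI fraction, against 37.9 ± 4.26 CPM in the GFP-LO fraction (SD, n = 6), higher in 6 of 6 mice (log2 0.38 ± 0.12 SE, edgeR adjusted p = 0.43). E2f1 and Ccne2, genes of an E2F factor and a cyclin E that act upstream of NPAT, had log2 0.91 and 0.48 (adjusted p = 0.66 and 0.68). The other cyclin E gene, Ccne1, had −0.03, and Cdk2 had 0.11 (edgeR adjusted p = 0.99 and 0.93). E2f1 differed by 2.48 in B1M, and its log2 fold change was 0.59 ± 0.34 without B1M and 0.45 ± 0.33 without B1M and B3M (edgeR adjusted p = 0.70 and 0.74). Of 11 genes of replication-coupled supply 10 were positive (median 0.12). Cdan1 was at 18.9 ± 9.46 CPM on average in the GFP-HI fraction, against 8.66 ± 3.62 CPM in the GFP-LO fraction, higher in 5 of 6 mice (log2 1.04 ± 0.37 SE, edgeR adjusted p = 0.53). In B1M alone Cdan1 was at 35.4 CPM in the GFP-HI library, against 4.02 CPM in the GFP-LO library. Its log2 fold change was 0.67 ± 0.27 without B1M and 0.52 ± 0.26 without B1M and B3M (edgeR adjusted p = 0.46 and 0.53). The sliding clamp gene Pcna had log2 0.26 and the helicase gene Mcm2, whose product also holds H3 and H4, had 0.36 (adjusted p = 0.68 and 0.70).

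Among 22 other histone chaperones, 11 had a positive and 11 a negative value, with a median of 0.00. Dek, a chromatin protein that binds H3.3, was at 203 ± 36.1 CPM on average in the GFP-HI fraction, against 165 ± 28.7 CPM in the GFP-LO fraction (SD, n = 6), higher in 6 of 6 mice (log2 0.30 ± 0.08 SE, edgeR adjusted p = 0.15), and passed in DESeq2 (adjusted p = 0.034). Vps72, a chaperone of H2A.Z, and Ubn1, a subunit of the HIRA complex, had log2 −0.55 and −0.35 (adjusted p = 0.64 and 0.67). Without B1M, Vps72 was at −0.39 and Ubn1 at −0.17. For the cell cycle genes beside which these factors are usually read, 22 of 24 S phase genes were positive (median 0.35, 0 called and 8 with an unadjusted p under 0.05 in edgeR). DESeq2 called 1 of the 24, Rrm1, with 7 under an unadjusted p of 0.05. Its leading genes were Rrm1, Mcm6 and Pole (log2 0.36, 0.59 and 0.48; adjusted p = 0.073, 0.24 and 0.55). Of 20 genes of G2 and mitosis 18 were positive, with a median of 0.34, and 14 had an unadjusted p under 0.05 in edgeR, or 70% against 7.24% of all tested genes. Of these Top2a and Kif15 rose, by log2 0.48 and 0.60 (edgeR adjusted p = 0.019 and 0.025), whereas Tpx2 had 0.57 and did not pass (adjusted p = 0.071). Both calls were lost without B3M, B4M, B7F or B7M in turn, with adjusted p of 0.077 to 0.14 for Top2a and 0.082 to 0.11 for Kif15 in edgeR, and log2 fold changes of 0.44 to 0.48 and 0.53 to 0.63. DESeq2 called 6 of the 20, Tpx2 among them, against 1.03% of all genes it gave an adjusted p.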

How the data were processed

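Per the submitters' processing notes, the tools were featureCounts, DESeq2, FastQC, bcl2fastq 2.20.0 and R 3.4.1, and the builds named are mm10 and GRCm38. The deposited table holds raw read counts per gene over annotated exons, not normalised by the authors, with the exonic length of each gene in bases. Not given in the sources used here: the aligner, annotation release, strand setting and treatment of reads with several matches. All 12 count columns matched 1 library each by name. Under edgeR 4.0.16 (R 4.3.3), low genes were removed per group (counts of at least 10, totals of at least 15), and counts were scaled by TMM and tested with robust quasi-likelihood, two-sided, with mouse as a block, since both fractions came from the same animals. Adjusted p covers all 11719 tested genes. SE is the log2 fold change over the root of the F statistic, and intervals use its degrees of freedom. Deviations from group means correlated by 0.23 to 0.49 within a mouse and by at most 0.26 between mice. DESeq2 1.42.0, other scaling, no filter, no block, no Rn45s, no clustered histone genes, no robust estimation and mice left out were alternatives. Log2 CPM used a prior count of 2. The edgeR script was tested on simulated counts. No 2 libraries were identical. No batch is named in the labels, and none was tested. Members and gene lists were chosen with earlier results of these data known. Named partners are called genes and the 3 with the smallest p in each list, and genes like a member are the 3 with the highest r.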

Additional observations from a re-analysis of the deposited data

Results flagged for a closer look

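Among the 6 libraries of a fraction, 7 values stood apart from the others (gap to the nearest over the whole range above 0.625), out of 70 groups of 6 looked at, where chance flags about 1 in 20. Lsm10 was at 14.6 CPM in the GFP-HI library of B1M, against 2.90 to 5.25 CPM in the other GFP-HI libraries. Asf1a was at 51.3 CPM in that library, against 15.02 to 26.3 CPM, and at 32.0 CPM in the GFP-LO library of B7F, against 15.2 to 19.8 CPM. Dek was at 275 CPM in the GFP-HI library of B1M, against 175 to 200.3 CPM. Mcm6 was at 63.3 CPM in the GFP-HI library of B3M, against 28.3 to 38.9 CPM. In the GFP-LO library of B1M, Snrpd3 was at 57.9 CPM, against 25.9 to 37.8 CPM, and Pcna at 61.3 CPM, against 34.0 to 42.2 CPM. Of the 7 values 5 lie in a library of B1M; its GFP-HI library detected the fewest genes of all, 12312, and the part of that in these values was not tested.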

How the results depend on the processing

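The count of the 10 genes that passed was 0 in both directions under all 14 alternatives. Without the replicate block edgeR again called 0 of the 10, and 0 genes of the whole table. Of the 65 partner genes, 0 were lower under every alternative. Without the count filter 2 were called higher by edgeR (Zcchc6, log2 0.52, adjusted p = 2.2e-05, and Cdan1, log2 1.03, adjusted p = 0.016). That setting called 127 of 21827 genes higher, against 55 of 11719 in the main test. In the main test Zcchc6 had 0.53 ± 0.36 (SE, edgeR adjusted p = 0.80). DESeq2 called 1 partner higher (Dek, log2 0.31, adjusted p = 0.034). The cause of these differences was not tested. Values near 0 changed sign. With 1 mouse left out at a time, Slbp ran from −0.060 (without B4M) to 0.16 (without B1M), Casp8ap2 from −0.17 (without B3M) to 0.052 (without B1M), Lsm11 from −0.080 (without B4M) to 0.13 (without B5M) and Asf1a from −0.079 (without B1M) to 0.38 (without B7F). Casp8ap2 was at 0.0043 without the replicate block, and Asf1a at −0.049 without B1M and B3M. The other 6 genes kept a positive sign under all 14. The smallest adjusted p of any of the 10 under any alternative was 0.21, for Chaf1a without B1M and B3M. Lsm10 moved most, and lay between 0.077 without B1M and B3M and 0.97 without B7F. The lowest library counts of the 10 genes were those of Lsm10, Chaf1b, Lsm11 and Asf1b, at 4, 15, 35 and 38, and the part of depth in their spread was not tested.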
